A study of Mus musculus with 48 samples.

Results

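The line labelled a knockout of both KAT6A and KAT6B was compared with its E14 parent at day 2 of neuronal differentiation, by RNA sequencing of 3 libraries per line. These 6 libraries were taken, by their labels, from 48 in the series, which covers 4 genotypes at 4 time points. E14 is a male mouse embryonic stem cell line. The double knockout (dKO) carries knockouts of both genes in E14, and the 3 dKO and the 3 E14 libraries were otherwise handled alike. At day 2 the cells of every group were embryoid bodies, free-floating aggregates formed after withdrawal of LIF, the cytokine that keeps stem cells undifferentiated. No retinoic acid had been given by then, since it was added from day 4. The replicates came from 3 independent differentiations per the series' design text. The labels do not say how many clones a knockout line holds, so a difference between clones and an effect of the genotype cannot be told apart. KAT6A knockout and KAT6B knockout libraries of the same day (3 each) were used beside them.

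KAT6A and KAT6B are closely related lysine acetyltransferases of the MYST family. They sit in complexes with BRPF scaffold proteins, ING5 and MEAF6, and acetylate histone H3. At the stage sampled here, mouse stem cells normally leave the naive state, marked by factors such as Klf4 and Tbx3, and pass through a formative, epiblast-like state marked by Fgf5, Otx2 and Dnmt3b before they adopt germ layer fates.

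Total gene counts were 43.81, 42.58 and 58.89 M in the dKO libraries and 34.45, 37.41 and 51.05 M in the E14 libraries. Levels are given as counts per 1 M counts (CPM) after scaling of the libraries. In both lines replicate 3 stood apart from replicates 1 and 2. The chi-square of the counts per degree of freedom, which is 1 for sampling noise alone, was 13.2 between dKO replicates 1 and 2 and 87.2 and 106 between either of them and replicate 3. The same values in E14 were 6.63, 22.4 and 25.8, so replicates 1 and 2 were alike without being one library. On the second principal component of the day 2 libraries (16% of the variance) dKO replicates 1 and 2 lay at 44.5 and 51.4 and dKO replicate 3 at -20.2, while the E14 libraries lay at 4.6, 1.09 and -22.6. The mitochondrial share of counts was 1.66%, 1.66% and 3.09% in dKO and 1.62%, 1.88% and 1.8% in E14.

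Both targeted genes kept transcripts in dKO. Kat6a (chromosome 8, 23349551 to 23433275 on GRCm39, plus strand) was at 72.1, 105 and 77.9 CPM in dKO, against 129, 131 and 133 CPM in E14. The groups did not overlap, and the log2 fold change was -0.62 ± 0.14 (SE; edgeR quasi-likelihood test, adjusted p = 0.046). That call was past the threshold in 1 of 6 fits that each left out 1 library, with an adjusted p of up to 0.197 without dKO replicate 1. Kat6b (chromosome 14, 21531502 to 21722546, plus strand) was at 151, 175 and 165 CPM in dKO, against 165, 162 and 236 CPM in E14, and the groups overlapped (log2 fold change -0.20 ± 0.16, adjusted p = 0.706). Kat6a was at 64.5, 73.8 and 58.1 CPM in KAT6A knockout, and Kat6b at 87.7, 119 and 129 CPM in KAT6B knockout. Neither differed from dKO by a call (edgeR adjusted p = 0.55 for Kat6a and 0.282 for Kat6b). Counts summed over all exons say nothing of which exon was edited or whether protein is made. The other genes of the acetyltransferase complexes and the MYST family were mostly level: of 14 tested, Kat6a was called lower and Brpf3 higher, and the median log2 fold change was -0.01. Brpf3, a scaffold of such complexes, was at 99.4, 114 and 67 CPM in dKO, against 51.8, 47.2 and 58.1 CPM in E14 (log2 fold change 0.84 ± 0.19, adjusted p = 0.0437), and its call was past the threshold in 1 of the 6 fits, with an adjusted p of up to 0.224 without E14 replicate 2. The lowest of the 3 dKO libraries lay above the highest of the 3 E14 libraries.

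The cells of both lines expressed the stem cell factors Pou5f1 and Sox2. Pou5f1 was at 478, 453 and 507 CPM in dKO and 492, 482 and 517 CPM in E14 (log2 fold change -0.05 ± 0.12, adjusted p = 0.914). Sox2 was at 322, 398 and 207 CPM in dKO and 299, 298 and 319.6 CPM in E14 (0.01 ± 0.22, adjusted p = 0.99). The ranges overlapped for both genes. Fgf5, Otx2 and Dnmt3b were also present in both lines, at the levels given below.

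Of 19594 genes tested, 220 (1.12%) passed an adjusted p of 0.05. Most of them were higher in dKO: 161 (0.822%) rose and 59 (0.301%) fell. The genes that rose were scarce in E14, with a median of 4.09 CPM there and 10.3 CPM in dKO, where the median over all tested genes in E14 was 10.0 CPM. Those that fell were more abundant, with a median of 18.7 CPM in dKO and 38.5 CPM in E14. The median log2 fold change was 1.32 among the genes that rose and -0.88 among those that fell, against 0.01 over all tested genes. A change of at least 2-fold was seen in 123 of the genes that rose and 16 of those that fell. All 220 had 3 dKO libraries on one side of all 3 E14 libraries, a pattern also shown by 22.5% of all tested genes (11.8% with dKO above and 10.8% with dKO below). In bulk RNA, fewer cells of a type and less RNA per cell cannot be told apart, and this holds for every level below.

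**Figure D1:**
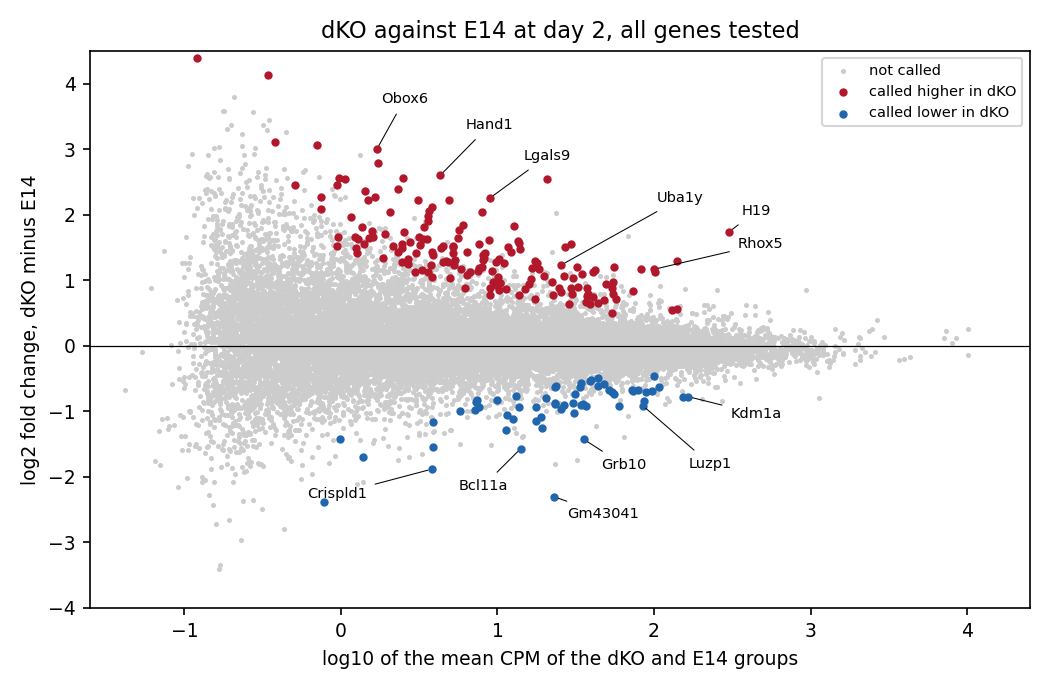
Each point is 1 of the 19594 genes tested at day 2, plotted by the log10 of its mean CPM over dKO and E14 (x axis) and its log2 fold change, dKO minus E14 (y axis). The 161 genes called higher (red) spread over low and middle levels, the 59 called lower (blue) sit mostly between 10 and 100 CPM, and 5 genes, none of them called, lie outside the axes.

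The number of calls depended on single libraries. It was 92, 40 and 263 without dKO replicates 1, 2 and 3, and 9, 7 and 79 without E14 replicates 1, 2 and 3. Of the called genes, 7 passed in all 6 of these fits (Lgals9, Magea9, Uba1y, Rhox6, Gm43041, Luzp1 and Adamts15), and 44 passed in none. Every other call described below was therefore lost in at least 1 of the fits. Of 57 called genes chosen by the naming rule, 30, 17 and 40 kept their call without dKO replicates 1, 2 and 3, and 6, 6 and 23 kept it without E14 replicates 1, 2 and 3, with none changing direction.

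The call with the smallest adjusted p was Lgals9, which encodes galectin-9, a secreted sugar-binding protein (chromosome 11, 78853800 to 78875772, minus strand). It was at 13.9, 17.4 and 13.2 CPM in dKO, against 3.74, 2.7 and 2.89 CPM in E14 (log2 fold change 2.25 ± 0.22, adjusted p = 0.000703). Every dKO library was well above every E14 library, and the highest adjusted p on leaving out a library was 0.0155. Magea9, of an X-linked melanoma antigen family normally active in testis, was at 4.27, 4.56 and 3.94 CPM in dKO, against 0.638, 0.701 and 0.806 CPM in E14 (2.56 ± 0.30, adjusted p = 0.00269). Members of this family are near-identical, so its counts may include reads of others. Gm43041, a predicted gene singled out after its values were seen, had the largest fall among called genes with a mean above 5 CPM in E14. Its levels were 4.93, 9.76 and 8.59 CPM in dKO, against 44.3, 47.2 and 23.9 CPM in E14 (-2.31 ± 0.28, adjusted p = 0.00344).

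**Figure D2:**
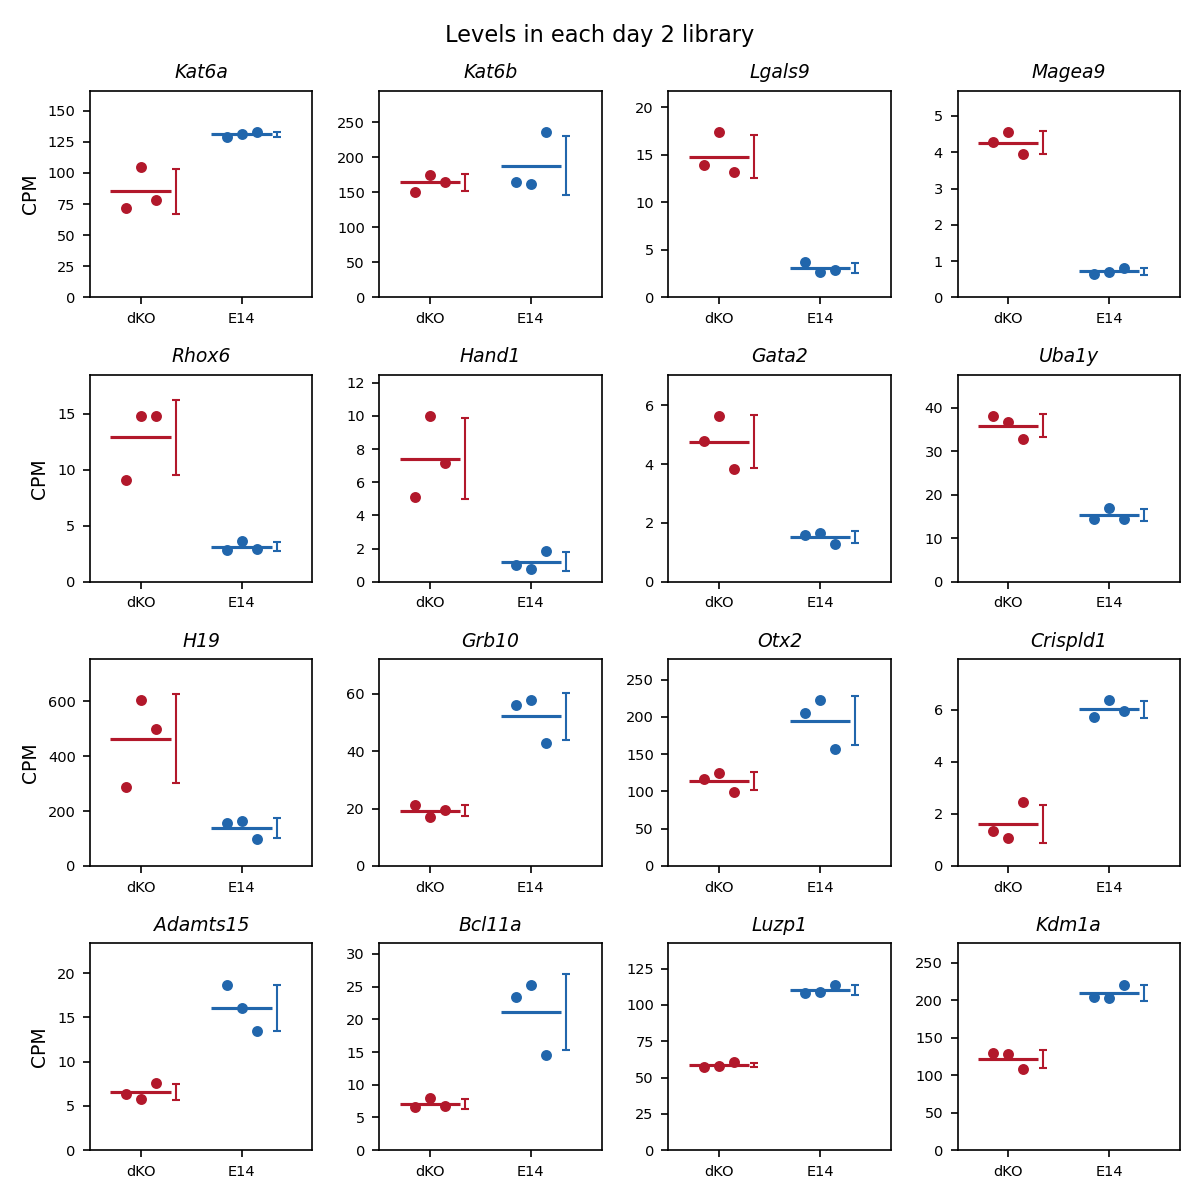
CPM of 16 genes in each day 2 library, with dKO (red) to the left of E14 (blue); points are libraries in the order of replicates 1 to 3, horizontal lines are means and bars at the side are 1 SD (n = 3). The groups are apart in every panel except that of Kat6b.

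To show what lies at the start sites of genes that moved, the promoter windows of 6 of them were read from RefSeq (GRCm38.p6), from 250 bases before to 50 after the first listed start, 5′ to 3′ on the strand of the gene with CpG dinucleotides in capitals. Lgals9 (chr11:78984875-78985174, minus strand) and Uba1y (chrY:818399-818698, plus strand) rose in dKO and held 4 and 10 CpGs. Grb10 (chr11:12037371-12037670, minus strand), Luzp1 (chr4:136469511-136469810, plus strand) and Kdm1a (chr4:136602674-136602973, minus strand) fell and held 45, 19 and 29. Otx2 (chr14:48667595-48667894, minus strand) also fell and held 6, no more than some genes that rose.
Lgals9: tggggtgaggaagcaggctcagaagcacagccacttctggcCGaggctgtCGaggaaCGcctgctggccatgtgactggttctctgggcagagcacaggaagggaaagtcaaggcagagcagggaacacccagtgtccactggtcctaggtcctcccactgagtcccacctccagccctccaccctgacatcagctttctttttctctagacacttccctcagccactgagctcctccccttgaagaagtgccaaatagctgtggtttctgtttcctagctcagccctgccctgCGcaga
Uba1y: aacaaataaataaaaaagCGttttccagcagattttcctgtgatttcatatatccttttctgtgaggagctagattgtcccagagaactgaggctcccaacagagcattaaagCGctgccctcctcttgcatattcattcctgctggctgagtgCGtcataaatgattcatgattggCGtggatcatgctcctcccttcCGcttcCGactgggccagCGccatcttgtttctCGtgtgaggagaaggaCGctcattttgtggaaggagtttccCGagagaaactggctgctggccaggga
Grb10: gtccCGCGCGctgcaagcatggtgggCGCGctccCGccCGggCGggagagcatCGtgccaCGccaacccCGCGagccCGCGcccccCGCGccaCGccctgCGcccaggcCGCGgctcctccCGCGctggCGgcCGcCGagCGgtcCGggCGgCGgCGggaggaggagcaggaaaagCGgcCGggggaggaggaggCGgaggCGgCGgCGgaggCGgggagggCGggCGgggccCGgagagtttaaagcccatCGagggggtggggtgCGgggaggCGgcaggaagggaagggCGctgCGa
Luzp1: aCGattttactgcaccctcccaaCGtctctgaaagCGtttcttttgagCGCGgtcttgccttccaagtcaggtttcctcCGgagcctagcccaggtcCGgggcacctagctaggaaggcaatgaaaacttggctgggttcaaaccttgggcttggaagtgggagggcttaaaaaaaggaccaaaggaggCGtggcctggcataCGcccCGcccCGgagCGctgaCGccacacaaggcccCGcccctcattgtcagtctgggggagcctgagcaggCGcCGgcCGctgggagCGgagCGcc
Kdm1a: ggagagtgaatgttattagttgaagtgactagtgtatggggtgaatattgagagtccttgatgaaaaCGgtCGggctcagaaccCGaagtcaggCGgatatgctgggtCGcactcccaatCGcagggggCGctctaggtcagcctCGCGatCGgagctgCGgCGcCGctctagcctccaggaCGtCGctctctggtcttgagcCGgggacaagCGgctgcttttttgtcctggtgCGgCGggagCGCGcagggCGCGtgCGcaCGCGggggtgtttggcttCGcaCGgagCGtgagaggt
Otx2: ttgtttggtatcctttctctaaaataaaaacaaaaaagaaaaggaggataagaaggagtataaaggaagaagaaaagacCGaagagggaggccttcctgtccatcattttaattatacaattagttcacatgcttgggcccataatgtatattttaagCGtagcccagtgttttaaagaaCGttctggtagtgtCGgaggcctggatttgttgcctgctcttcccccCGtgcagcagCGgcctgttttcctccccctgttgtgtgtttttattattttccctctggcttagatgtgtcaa

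These 6 genes do not stand for the rest, and the numbers over all called genes were as follows. A window was listed for 118 of the 161 genes that rose, 42 of the 59 that fell and 13020 of the 19594 tested. The median number of CpGs per 300 bases was 5.5 among genes that rose (quartiles 3 and 13) and 21.5 among genes that fell (12.5 and 30.8), against 19 over all tested genes (10 and 28). Low expression went with few CpGs in general: the 4154 tested genes under 5 CPM in E14 with a window had a median of 11, and the 65 of them that rose had a median of 5. The GC box GGGCGG, searched on both strands, was in 35.6% of windows of genes that rose, 59.5% of those that fell and 61.2% of all. TATAAA was in 14.4%, 11.9% and 7.67%, CCAAT in 42.4%, 40.5% and 38.8%, and GATAAG in 4.24%, 4.76% and 5.08% of the same sets. These are matches of letters in a window and were not tested as sites.

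Genes of the trophoblast, the outer lineage that forms the placenta, made up the list with the most calls. Of 18 tested members 7 rose and none fell, 17 had a log2 fold change above 0, and the median was 0.98, against 0.01 over all genes. The dKO libraries lay above the E14 libraries for 15 members. Over all tested genes 0.822% rose, and 11.8% had the dKO libraries above. Like every list here, this one was chosen with earlier results of these data known. Its excess over all genes is therefore a description and no independent support. The summed level of the list was 1428, 1559 and 1572 CPM in dKO and 791, 779 and 1052 CPM in E14. Most of this sum came from 1 member, Peg10, with 177663 counts over the dKO libraries and 84646 over the E14 libraries. Krt18 came next, with 12376 and 9803 counts, so the sum says little of the other members. The count of members that rose was 5, 3 and 7 without dKO replicates 1, 2 and 3, and 1, 1 and 4 without E14 replicates 1, 2 and 3. The list shares Rhox6 and Rhox9 with the Rhox list.

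Hand1, a basic helix-loop-helix factor of trophoblast giant cells and heart, was at 5.13, 9.99 and 7.15 CPM in dKO, against 0.986, 0.782 and 1.85 CPM in E14 (log2 fold change 2.60 ± 0.42, adjusted p = 0.0108). Its lowest dKO library was above its highest E14 library. Gata2, a GATA factor of trophoblast and blood, was at 4.8, 5.63 and 3.84 CPM in dKO, against 1.6, 1.67 and 1.28 CPM in E14 (1.65 ± 0.27, adjusted p = 0.0109). Plac1, an X-linked placental gene, was at 1.06, 1.54 and 1.19 CPM in dKO, against 0.232, 0.0809 and 0.138 CPM in E14 (3.07 ± 0.56, adjusted p = 0.0156). Both had groups that did not overlap, though at low levels: Plac1 rests on 185 counts over the dKO libraries and 18 over the E14 libraries. Elf5, a defining factor of trophoblast stem cells, stayed near 0: 0.354, 0.159 and 0.622 CPM in dKO and 0.087, 0 and 0.138 CPM in E14 (adjusted p = 0.33). For the members Cdx2, Eomes and Krt18 the groups overlapped.

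The Rhox genes are a cluster of X-linked homeobox genes expressed in placenta and gonads. Of 26 genes in the table, 7 had enough counts to test, 3 of these rose, none fell, and the median log2 fold change was 1.17. For comparison, 0.822% of all tested genes rose and their median was 0.01. A scarce gene could pass the filter on low counts through its dKO counts alone, which favours rises among those tested. Rhox2a, for example, had 84 counts over the dKO libraries and 11 over the E14 libraries. The number that rose was 3, 2 and 2 without dKO replicates 1, 2 and 3, and 1, 1 and 2 without E14 replicates 1, 2 and 3. Rhox6 was at 9.05, 14.8 and 14.8 CPM in dKO, against 2.87, 3.61 and 2.91 CPM in E14 (2.04 ± 0.27, adjusted p = 0.00344). Rhox9 was at 6.86, 11.5 and 9.76 CPM in dKO, against 2.47, 1.99 and 3.34 CPM in E14 (1.84 ± 0.28, adjusted p = 0.00876). Replicate 1 was the lowest dKO library for both and still exceeded all E14 libraries. Rhox5, the most abundant, was at 105, 156 and 156 CPM in dKO, against 56.1, 60.9 and 68.6 CPM in E14 (1.17 ± 0.25, adjusted p = 0.0448; adjusted p = 0.13 without the filter on low counts). Of 12 tested genes in the Mage and other X-linked testis families, Magea9 alone rose, and the median was 0.71.

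Some Y-linked genes were also higher. Of 10 tested genes on the Y chromosome 3 rose and none fell, 9 had a log2 fold change above 0, and the median was 0.73. Beside them, 0.822% of all tested genes rose and the median of all was 0.01. Over the 8 of a list of named Y genes that were tested, which holds the same 3 calls, the median was 1.21. Uba1y, which encodes a ubiquitin-activating enzyme, was at 38.1, 36.7 and 32.9 CPM in dKO, against 14.5, 16.9 and 14.4 CPM in E14 (1.23 ± 0.16, adjusted p = 0.00344). Zfy1, a zinc-finger factor, was at 24.1, 30.2 and 19.7 CPM in dKO, against 10.5, 10.1 and 9.56 CPM in E14 (1.29 ± 0.23, adjusted p = 0.0147). Kdm5d, a histone demethylase, was at 3.05, 5.43 and 4.6 CPM in dKO, against 1.77, 1.62 and 1.53 CPM in E14 (1.41 ± 0.28, adjusted p = 0.0247). All 3 neighbour each other between 725128 and 956786 on the Y chromosome. Abundant Y genes did not share this: Ddx3y, Uty and Eif2s3y, with overlapping groups, had log2 fold changes of 0.26, 0.15 and 0.03. The number of Y genes that rose was 3, 1 and 3 without dKO replicates 1, 2 and 3, and 1 without any 1 of the E14 libraries.

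Imprinted genes, expressed from 1 parental copy, moved in both directions. H19, a maternally expressed noncoding RNA, was at 287, 604 and 501 CPM in dKO, against 158, 163 and 96.6 CPM in E14 (1.74 ± 0.30, adjusted p = 0.0169). Its neighbour Igf2, a paternally expressed growth factor, was at 68.4, 31.5 and 32.4 CPM in dKO, against 17.3, 14.8 and 13.0 CPM in E14 (1.56 ± 0.31, adjusted p = 0.03). Both were above E14 in every dKO library, with the highest H19 in replicate 2 and the highest Igf2 in replicate 1. Neither passed when genes with low counts were not filtered out (adjusted p = 0.0723 for H19 and 0.0954 for Igf2). The predicted gene Gm49394 next to them also rose, and it overlaps Igf2 on the same strand, so how their reads were divided is uncertain. Grb10, an adaptor that restrains insulin signalling, was at 21.3, 17.2 and 19.4 CPM in dKO, against 56, 57.7 and 42.7 CPM in E14 (-1.43 ± 0.23, adjusted p = 0.0108). Cdkn1c, an inhibitor of cyclin-dependent kinases, was at 8.05, 6.83 and 6.53 CPM in dKO, against 13.4, 13.1 and 11.3 CPM in E14 (-0.82 ± 0.18, adjusted p = 0.0405). In all, 1 of 14 tested maternally expressed genes rose and 2 fell (median -0.03), and 1 of 20 paternally expressed genes rose and none fell (median 0.20). Among all tested genes 0.822% rose and 0.301% fell, with a median of 0.01. None of the other 6 tested genes around Grb10 was called.

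Beyond these lists, the largest rises were in scarce genes of varied kinds. Obox6, an oocyte-type homeobox gene of a multigene family, was at 3.45, 2.54 and 3.08 CPM in dKO, against 0.406, 0.216 and 0.492 CPM in E14 (3.00 ± 0.63, adjusted p = 0.0345). Aox3, an aldehyde oxidase, was at 1.79, 2.36 and 4.86 CPM in dKO, against 0.609, 0.243 and 0.452 CPM in E14 (2.79 ± 0.45, adjusted p = 0.0108). Osm, a cytokine that signals through the same receptor chain as LIF, was at 4.05, 2.93 and 4.77 CPM in dKO, against 0.754, 0.512 and 0.944 CPM in E14 (2.40 ± 0.52, adjusted p = 0.0389). The groups were apart for all 3, but Osm and Obox6 were called in no fit that left out a library, and Osm had an adjusted p of 0.0519 without the filter on low counts. Gcnt3 (2.55), Upk3b (2.23), Fbp2 (2.11), Aldh3b2 (2.06), Crxos (1.98), Ddr2 (1.90) and Nlrp9b (1.83) completed the 15 genes with the largest rise above 1 CPM, with adjusted p between 0.00956 and 0.0303. Of these, Ddr2 is a collagen receptor, Fbp2 an enzyme of gluconeogenesis, Upk3b a uroplakin of epithelium, and Nlrp9b belongs to a multigene family whose counts may be shared.

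Single calls came from several other lineages, beside 0.822% of all tested genes that rose. Meis1, a homeobox factor, was at 4.29, 3.22 and 4.23 CPM in dKO, against 1.04, 1.11 and 1.36 CPM in E14 (1.74 ± 0.29, adjusted p = 0.0109). Of 11 heart genes 2 rose, Myl4 and Ryr2 (log2 fold changes 1.51 and 0.77), and the median was 0.42. Of 18 matrix genes 2 rose, Col1a2 and Col6a1 (1.42 and 1.16), with a median of 0.34. Of 12 blood and endothelial genes Cdh5, an endothelial cadherin, rose (1.81, adjusted p = 0.0356). Of 19 germline genes Stra8, which is required for entry into meiosis, rose: 6.57, 5.63 and 4.49 CPM in dKO, against 1.83, 1.75 and 2.56 CPM in E14 (1.44 ± 0.30, adjusted p = 0.0332). Of 21 interferon-stimulated and antigen presentation genes Ifitm3, an antiviral membrane protein, rose: 101, 103 and 137 CPM in dKO, against 48.6, 50.9 and 52.8 CPM in E14 (1.16 ± 0.21, adjusted p = 0.0152). For Stra8 and Ifitm3 the dKO libraries all lay above the E14 libraries. None of the matrix, heart, endothelial, germline or interferon calls was left without any 1 of the E14 libraries.

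Genes of the 2-cell-like state, which a small fraction of stem cells enters, gave no call. All 8 tested members had a log2 fold change above 0, the median was 1.02, and their summed level was 6.39, 6.22 and 7.64 CPM in dKO and 3.48, 3.40 and 2.73 CPM in E14. The shared sign is partly a product of the filter on low counts, which a gene could pass through dKO alone. Usp17ld did so, with 62 counts over the dKO libraries and 0 over the E14 libraries. Tcstv3 (42 and 14 counts) and Gm4340 (48 and 17) were scarce too. Zscan4c was at 1.59, 1.84 and 2.42 CPM in dKO and 0.783, 1.05 and 0.511 CPM in E14 (1.33 ± 0.35, adjusted p = 0.0865). The 3 dKO libraries lay above the E14 libraries, and reads of the Zscan4 family cannot be assigned to 1 member with certainty.

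The genes that fell most were of varied kinds. Crispld1 was at 1.33, 1.07 and 2.45 CPM in dKO, against 5.71, 6.36 and 5.96 CPM in E14 (-1.88 ± 0.28, adjusted p = 0.00857). Bcl11a, a zinc-finger repressor, was at 6.59, 7.9 and 6.76 CPM in dKO, against 23.4, 25.3 and 14.5 CPM in E14 (-1.57 ± 0.30, adjusted p = 0.0235). Its relative Bcl11b was at 1.53, 2.22 and 2.19 CPM in dKO, against 5.8, 5.34 and 6.18 CPM in E14 (-1.54 ± 0.32, adjusted p = 0.0332). All 3 genes had dKO libraries well below the E14 libraries. Adamts15, a secreted metalloprotease, was at 6.37, 5.83 and 7.57 CPM in dKO, against 18.7, 16.1 and 13.5 CPM in E14 (-1.28 ± 0.17, adjusted p = 0.00344). Irs1, the insulin receptor substrate, was at 8.27, 7.24 and 8.31 CPM in dKO, against 18.7, 18.9 and 14.2 CPM in E14 (-1.12 ± 0.23, adjusted p = 0.03). Here too the groups were apart, and Adamts15 was called without any 1 of the 6 libraries.

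The rest of the 15 were Npr3 (-1.70), Zfp827 (-1.25), Fgf13 (-1.16), Jph1 (-1.15), B3gnt5 (-1.09), Cracd (-1.06), Tmem47 (-1.03), Amigo1 (-1.0) and Mfhas1 (-0.98), with adjusted p between 0.0169 and 0.0472. Npr3 is the clearance receptor of natriuretic peptides, Jph1 a junctophilin that links membranes, and Amigo1 a neuronal adhesion protein. Zfp827 varied among E14 libraries, at 12.1, 12.5 and 9.9 CPM in dKO, against 22, 18.4 and 41.2 CPM in E14. The cell cycle inhibitor Cdkn1b was at 30.2, 27.0 and 19.2 CPM in dKO, against 52.7, 53.1 and 38.8 CPM in E14 (-0.92 ± 0.19, adjusted p = 0.03). With Cdkn1c it made up the 2 calls among 19 p53 targets and cell cycle inhibitors.

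Genes of the formative epiblast gave 2 calls. Of 18 tested, 2 fell (Otx2 and Sfrp2) and none rose, 14 had a log2 fold change below 0, 10 had groups apart with dKO below and 1 with dKO above, and the median was -0.54. Over all tested genes 0.301% fell, 10.8% had groups apart with dKO below and 11.8% with dKO above. The summed level was 2545, 2419 and 2407 CPM in dKO and 3591, 3466 and 3225 CPM in E14. The larger part of that gap came from Dnmt3b, which was not called and had means of 828 CPM in dKO and 1444 CPM in E14. Otx2, a homeobox factor of the epiblast and forebrain, was at 117, 124 and 99.6 CPM in dKO, against 205, 222 and 157 CPM in E14 (-0.78 ± 0.16, adjusted p = 0.0294). Sfrp2, a secreted Wnt modulator, was at 25.2, 27.5 and 18.9 CPM in dKO, against 47.9, 45.4 and 39.9 CPM in E14 (-0.90 ± 0.19, adjusted p = 0.0304). In both, the highest dKO library lay below the lowest E14 library. Fgf5, the standard marker of this state, did not pass the test: 19.3, 20 and 36.7 CPM in dKO and 62.8, 62.6 and 52.6 CPM in E14 (-1.22 ± 0.38, adjusted p = 0.175). Dnmt3b, a de novo DNA methyltransferase, was at 901, 762 and 820.4 CPM in dKO and 1585, 1510.2 and 1238 CPM in E14 (-0.80 ± 0.29, adjusted p = 0.255). On leaving out a library, Otx2 was called in 1 of the 6 fits, without E14 replicate 3, and Sfrp2 in none.

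Naive pluripotency genes showed the opposite sign without a single call. All 20 tested members had a log2 fold change above 0, with a median of 0.47. Of them 9 had groups apart with dKO above, beside 11.8% of all tested genes. Tbx3 was at 38.7, 52.0 and 28.6 CPM in dKO and 15.5, 14.5 and 25.4 CPM in E14 (1.10 ± 0.35, adjusted p = 0.179). Klf4 was at 25.8, 23.9 and 21.8 CPM in dKO and 12.6, 10.9 and 24.7 CPM in E14, with overlapping groups (0.56 ± 0.41, adjusted p = 0.656). Nanog was at 189, 186 and 231 CPM in dKO and 154, 157 and 185 CPM in E14 (0.29 ± 0.23, adjusted p = 0.686). E14 replicate 3 was the highest E14 library for all 3 genes. The summed level of the list was 1976, 2307 and 1794 CPM in dKO and 1322, 1299 and 1889 CPM in E14, so the dKO and E14 sums overlapped through replicate 3 of each line.

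Early neuroectoderm genes were scarce in both lines. None of 15 was called, 11 had a log2 fold change below 0, the median was -0.57, and the summed level was 159.6, 152 and 188 CPM in dKO and 218, 211 and 234 CPM in E14. Pax6, an eye and forebrain regulator, was at 1.77, 1.86 and 1.57 CPM in dKO and 4.21, 3.61 and 3.05 CPM in E14 (-1.06 ± 0.34, adjusted p = 0.162). Sox1, the earliest neural plate marker, was below 1 CPM in all 6 libraries (-1.70 ± 0.58, adjusted p = 0.198). For both, the dKO libraries lay below the E14 libraries.

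Primitive streak genes, which mark the onset of gastrulation, differed between replicates of each line. Their summed level was 71.8, 55.2 and 228 CPM in dKO and 56.4, 52.7 and 237 CPM in E14, high in replicate 3 of both lines. Lhx1 was at 3.39, 2.41 and 9.0 CPM in dKO and 2.73, 2.96 and 22.8 CPM in E14 (-0.95 ± 0.84, adjusted p = 0.73). Gsc, the organizer gene goosecoid, was at 0.819, 0.295 and 3.18 CPM in dKO and 0.928, 0.755 and 4.96 CPM in E14. None of 14 tested members was called.

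Signalling genes gave 1 call in 6 lists. Smad1, which transduces BMP signals, was at 15.5, 19.9 and 19.4 CPM in dKO, against 28.1, 26.1 and 31.0 CPM in E14 (-0.64 ± 0.14, adjusted p = 0.038). No call was made among the LIF, FGF, Nodal, Wnt and Notch lists (16, 23, 17, 19 and 18 tested genes), whose medians lay between -0.12 and 0.15. Socs3, a feedback inhibitor induced by LIF, was at 30.2, 31.3 and 20.9 CPM in dKO and 11, 12.2 and 14.4 CPM in E14 (1.13 ± 0.35, adjusted p = 0.165). Lef1, a nuclear mediator of Wnt signals, was at 10.1, 8.38 and 25.8 CPM in dKO and 39.7, 37.3 and 71.7 CPM in E14 (-1.74 ± 0.41, adjusted p = 0.0723). Both had groups that did not overlap. The Wnt list summed to 669.7, 669.9 and 636 CPM in dKO and 864, 825 and 948 CPM in E14.

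Chromatin regulators were mostly level. Of 26 Polycomb genes Phf19, an accessory factor of Polycomb repressive complex PRC2, rose: 34.5, 44.2 and 29.6 CPM in dKO, against 17.1, 17.6 and 17.1 CPM in E14 (1.06 ± 0.18, adjusted p = 0.0109). The Polycomb median was -0.01. None of 16 MLL and trithorax genes and none of 15 DNA methylation genes was called (medians -0.07 and -0.05). Among metabolic genes, 19 of 21 hypoxia and glycolysis genes and 17 of 21 cholesterol and fatty acid synthesis genes had log2 fold changes below 0, with medians of -0.25 and -0.16 and no call. The glycolysis list summed to 14355, 12480 and 14210.4 CPM in dKO and 15963, 16172 and 16305 CPM in E14. The 13 mitochondrially encoded genes summed to 16091, 16041 and 31489.8 CPM in dKO and 16203, 18922 and 18046 CPM in E14, so the single high value was dKO replicate 3.

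**Figure D3:**
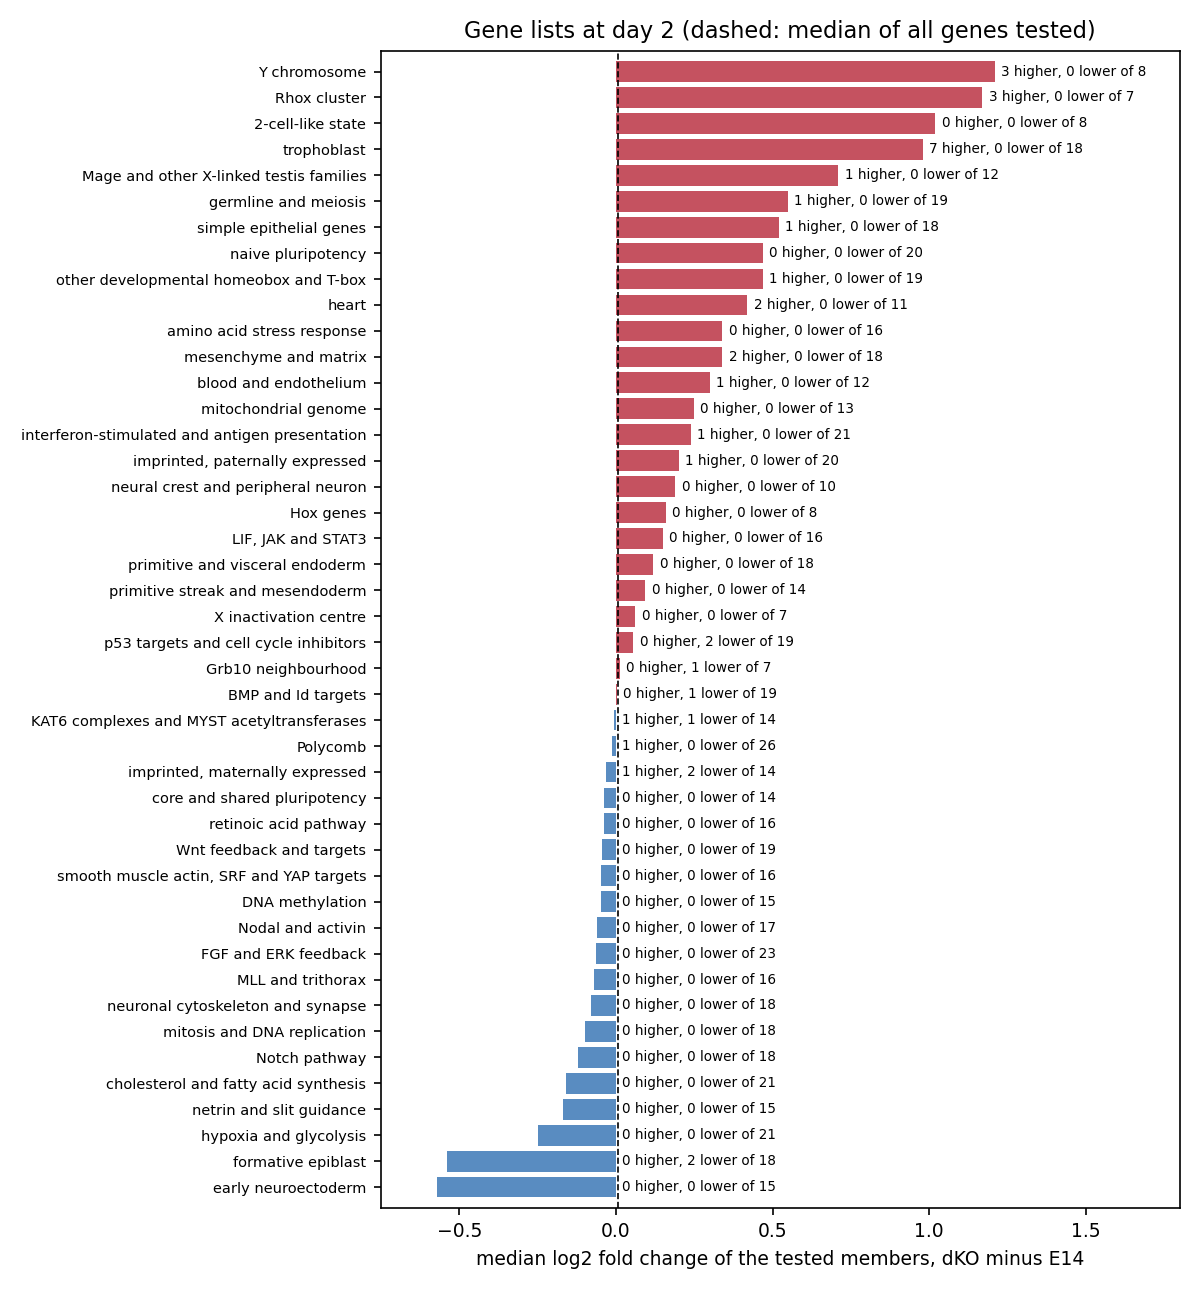
Median log2 fold change, dKO minus E14, of the tested members of 44 gene lists (bars, x axis), with the number of members called higher and lower; the dashed line is the median of all tested genes (0.01). The Y chromosome (1.21), Rhox (1.17), 2-cell-like (1.02) and trophoblast (0.98) lists lie highest, and the formative epiblast (-0.54) and early neuroectoderm (-0.57) lists lowest.

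The differences were not even over the chromosomes. On chromosome 11, 71.6% of 1495 tested genes (1070) had a log2 fold change above 0, the median was 0.13, and 23 genes rose while 2 fell. On chromosome 8, 34.6% of 1020 tested genes were above 0, the median was -0.11, and 3 rose while 12 fell. Thus 1.54% of the tested genes on chromosome 11 rose and 0.134% fell, and 0.294% and 1.18% on chromosome 8. The shares over all tested genes were 0.822% and 0.301%. The medians of the other 17 autosomes lay between -0.04 and 0.03. Each dKO library set against the E14 mean gave 0.15, 0.13 and 0.09 on chromosome 11 and -0.08, -0.08 and -0.14 on chromosome 8. The E14 libraries, each set against the other E14 libraries, gave 0.01, -0.02 and 0.02 on chromosome 11 and -0.02, -0.04 and 0.07 on chromosome 8. Kat6a, Smad1, Mfhas1 and Zfp827, which fell, are on chromosome 8. Lgals9, Hand1, Osm and Meis1, which rose, are on chromosome 11. So are Grb10 and Bcl11a, which fell (-1.43 and -1.57). KAT6A knockout and KAT6B knockout, compared with the same E14 libraries, had medians of 0.10 and 0.10 on chromosome 11 and -0.11 and -0.10 on chromosome 8. Between dKO and KAT6A knockout the medians were 0.04 and 0.01, and between dKO and KAT6B knockout 0.02 and 0.00, for chromosomes 11 and 8 in that order. At days 0, 6 and 15 the dKO medians against E14 were 0.05, 0.03 and 0.17 on chromosome 11 and -0.16, -0.15 and -0.03 on chromosome 8. Copy number was not measured, and its part in the calls on these chromosomes was not tested.

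**Figure D4:**
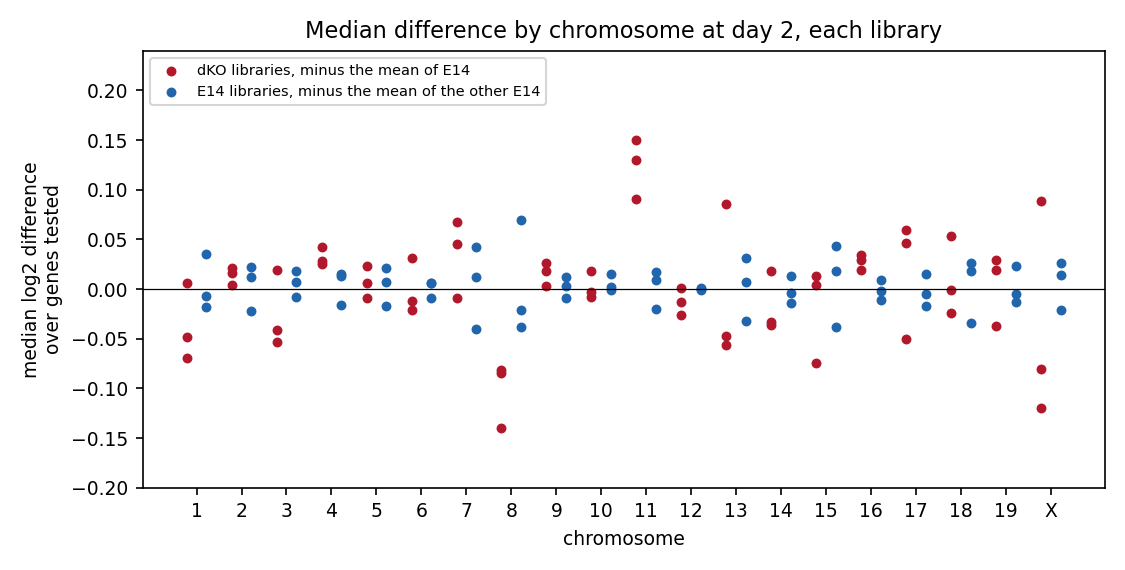
Median log2 difference over the tested genes of each autosome and the X chromosome (y axis), for the 3 dKO libraries against the E14 mean (red) and the 3 E14 libraries against the mean of the other 2 (blue). Chromosome 11 is above 0 and chromosome 8 below 0 in all 3 dKO libraries.

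Some called genes lay near each other. There were 13 stretches with at least 3 called genes starting within 2 Mb, and how many would arise by chance was not tested. In most of them uncalled genes outnumbered the calls. On chromosome 7, between 43057628 and 44753275, 3 of 72 tested genes rose and the median was 0.13. On chromosome 4, between 145136815 and 147145251 (GRCm39), 5 of 14 tested genes rose (Platr16, Zfp600, Zfp992, Zfp981 and Rex2), and the median log2 fold change of all 14 was 0.79. Most are zinc-finger genes of a repeated cluster, whose reads may be shared between copies. On chromosome 14, between 25938728 and 26121611, 3 of 4 tested genes rose (Cphx1, Gm34059 and 4933413J09Rik), with a median of 1.63. These stretches were found after the values were seen.

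A pair of neighbours on chromosome 4 fell together. Luzp1, a leucine zipper protein (136197072 to 136282091, plus strand), was at 57.3, 58.3 and 60.4 CPM in dKO, against 108, 109 and 114 CPM in E14 (-0.91 ± 0.12, adjusted p = 0.00344). Kdm1a, the histone demethylase LSD1 of the CoREST complex (136277851 to 136330034, minus strand), was at 129.6, 129 and 108 CPM in dKO, against 205, 203 and 221 CPM in E14 (-0.78 ± 0.13, adjusted p = 0.0108). The means stood at 53.1% and 58.3% of E14, and the groups did not overlap for either gene. In KAT6B knockout Luzp1 was at 61.9, 58.8 and 75.6 CPM and Kdm1a at 125, 105 and 135 CPM, 59.2% and 57.9% of the same E14 libraries, with adjusted p of 0.0598 and 0.066. In KAT6A knockout Luzp1 was at 132, 111 and 123 CPM and Kdm1a at 248, 209 and 202 CPM, 110% and 105% of E14. The genes on either side did not share the fall: Hnrnpr was at 102% and Ephb2 at 94.3% of E14 in dKO. The ends of Luzp1 and Kdm1a overlap on opposite strands, and reads there cannot be told apart without the strand setting of the counting. The copy number of this stretch was not measured.

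**Figure D5:**
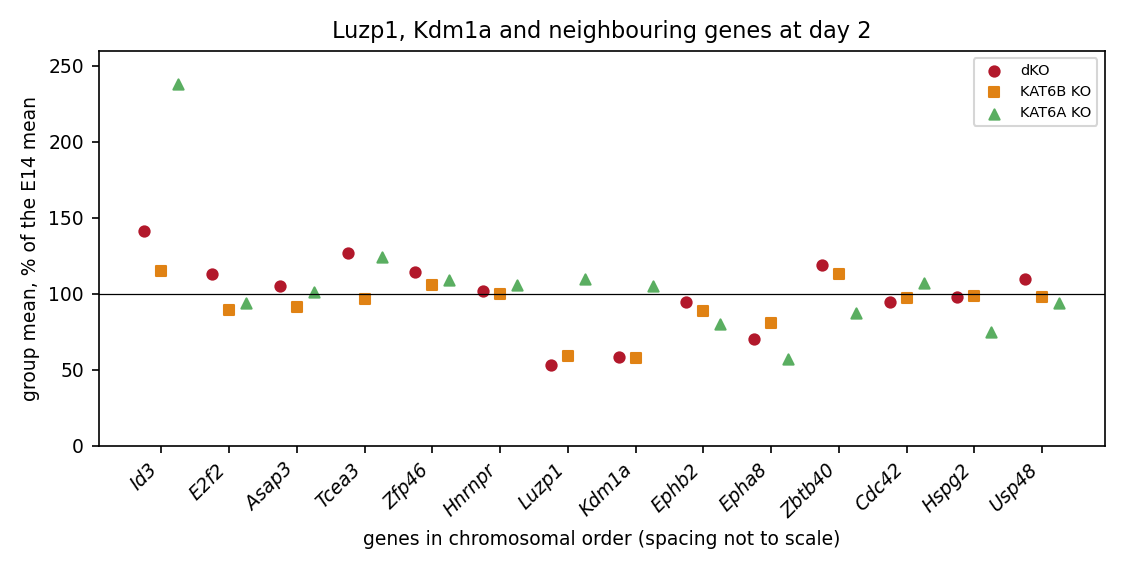
Group means of dKO, KAT6B knockout and KAT6A knockout as a percentage of the E14 mean (y axis) for Luzp1, Kdm1a and the neighbouring genes above 5 CPM in E14, in chromosomal order. Luzp1 and Kdm1a lie at 53.1% and 58.3% in dKO and 59.2% and 57.9% in KAT6B knockout, and at 110% and 105% in KAT6A knockout.

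Few genes separated dKO from the single knockouts. Against KAT6A knockout 3 genes were called (0.0153% of those tested). Magea9 rose by 1.91 ± 0.29 (adjusted p = 0.0429), with 1.24, 1.21 and 0.946 CPM in the KAT6A knockout libraries. Luzp1 and Kdm1a fell by 1.06 and 0.85 (adjusted p = 0.00292 and 0.0429). Against KAT6B knockout 2 genes were called (0.0102%). Dusp27, of the dual-specificity phosphatase family, was at 55, 56.1 and 57.2 CPM in dKO, against 20.2, 25.8 and 22.9 CPM in KAT6B knockout (1.29 ± 0.17, adjusted p = 0.0229). Adamts15 was at 15.5, 15.0 and 14.8 CPM in KAT6B knockout, and dKO was lower by 1.19 ± 0.17 on the log2 scale (adjusted p = 0.0278). The dKO libraries lay outside the range of the single knockout for each of the 5. On leaving out dKO replicates 1, 2 and 3 the counts were 0, 1 and 35 against KAT6A knockout and 0, 0 and 5 against KAT6B knockout. Without KAT6A knockout replicate 1, 2 or 3 the count against that line was 1 each time, and without KAT6B knockout replicates 1, 2 and 3 the count against that line was 0, 0 and 7.

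The single knockouts themselves gave 2 calls against E14 for KAT6A (0.0102%, Grb10 and Kat6a, both lower) and 0 for KAT6B by edgeR. An unadjusted p under 0.05 was reached by 2011 genes for KAT6A and 796 for KAT6B, of 19594 tested. With no change at all a share of 0.05 reaches it, which is more genes than were seen for KAT6B. The 161 genes that rose in dKO had median log2 fold changes of 1.32 in dKO, 0.62 in KAT6A knockout and 0.51 in KAT6B knockout, and the 59 that fell had -0.88, -0.54 and -0.27. The 3 comparisons share the E14 libraries, and the genes were chosen in the first of them. Grb10 was at 14.4, 19 and 12.2 CPM in KAT6A knockout and 26.8, 14.9 and 14 CPM in KAT6B knockout, near its level in dKO.

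The day 2 differences were set beside those of the same lines at other days, which share no library with them. At day 0, 395 genes were called (2.09%), and 62 of the day 2 calls were among them in the same direction (28.2% of the day 2 calls and 15.7% of the day 0 calls), 53 higher and 9 lower, with none opposite. Of 219 day 2 calls tested at day 0, 205 had the same sign. Magea9 (2.15), Hand1 (1.92), H19 (1.71), Uba1y (1.18) and Lgals9 (1.05) were called at day 0 as well. The shared count at day 0 was 20 without dKO day 2 replicate 2, 5, 5 and 25 without E14 day 2 replicates 1, 2 and 3, 30, 22 and 29 without dKO day 0 replicates 1, 2 and 3, and 39 and 36 without E14 day 0 replicates 1 and 3. Otx2 had log2 fold changes of 0.06 at day 0, -0.68 at day 6 and -1.33 at day 15, without a call at any of them.

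At day 6, with 14 calls (0.0682%), 3 were shared: Luzp1, Grb10 and Kdm1a, lower at both days. Grb10 fell furthest there (-2.45, adjusted p = 0.0389). At day 15, with 643 calls (3.18%), 9 were shared in the same direction (4.09% of the day 2 calls and 1.4% of the day 15 calls) and 2 had the opposite sign. Bcl11b (-3.31 at day 15) and Kdm1a (-0.72) were among those lower at both days. Kdm1a was called at all 4 days, with log2 fold changes of -0.86, -0.78, -0.75 and -0.72 at days 0, 2, 6 and 15. The 3 calls shared with day 6 became 1 without E14 day 2 replicate 1 or 2 and 0 without any 1 of the dKO day 6 libraries or E14 day 6 replicate 1 or 3. The 9 shared with day 15 became 4 and 5 without dKO day 2 replicates 1 and 2, 1, 0 and 4 without E14 day 2 replicates 1, 2 and 3, and 0 to 2 without any 1 of the day 15 libraries. No gene passed the edgeR test of a change of the dKO effect between days 0 and 2 among 19312 tested (lowest adjusted p = 0.0991). An unadjusted p under 0.05 was reached by 1151, where a share of 0.05 reaches it with no change at all. DESeq2 called 32.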

How the data were processed

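Total RNA cleared of rRNA was turned into directional paired-end libraries with 150 bp reads, per the labels' protocols. Raw counts per gene were deposited by the authors in 1 table, and the submitters' processing notes name HISAT2 and the GRCm39 build. The release of HISAT2, how reads were assigned to genes (program, strandedness) and which annotation was used: not given in the sources used here. The table has 36983 entries, of which 48 repeats of an identifier already listed were dropped.

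Counts of the 12 day 2 libraries were fitted together with edgeR 4.0.16 (R 4.3.3). Genes were kept by the edgeR filter (minimum count 10, minimum total 15), libraries were scaled by TMM, and robust quasi-likelihood F tests were adjusted by the Benjamini-Hochberg method over all 19594 genes. Calls are at adjusted p under 0.05, and errors of fold changes are SE. The biological coefficient of variation was 21%, to which counting error adds most in scarce genes. CPM were computed on TMM-scaled library sizes. Medians per library used log2 CPM with 2 as prior count. Other days were fitted in the same way, and the change of effect from day 0 was fitted over 12 libraries. The scripts were tested on simulated data.

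The members and the 44 gene lists (751 genes, 747 in the table, 657 tested) were chosen with earlier results of these data known. Genes were named by rule: the targeted genes, cell state markers, the 15 largest called changes per direction with a mean of at least 1 CPM, no overlap and a gene symbol, up to 5 called or 2 uncalled members per list, and up to 5 calls per direction in other comparisons. Genes outside the rule were chosen after their values were seen: Gm43041, Elf5, the genes of chromosomal stretches and a few list members given by their fold change only. Alternatives were RLE size factors, no filter, 1 CPM in 3 libraries, DESeq2 1.42.0, a replicate block, the 6 libraries alone, and leaving out each library. 1 stretch of neighbouring genes is not reported here.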

Additional observations from a re-analysis of the deposited data

How the results depend on the processing

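The 220 calls against E14 became 643 with DESeq2, 419 with the 6 libraries alone, 217 with RLE size factors, 318 without a filter and 221 with the 1 CPM filter, and ran from 7 to 263 on leaving out a library. DESeq2 kept all 220 and the 6 libraries 210. The cause of the larger counts was not tested. Against KAT6A knockout the 3 calls became 11 without a filter, 110 with DESeq2, 5 with the replicate block and 0 with the 6 libraries alone, and 0 to 35 on leaving out a library. Against KAT6B knockout the 2 calls became 29, 219, 4 and 0 under the same settings, and 0 to 7. The change of effect from day 0 gave 9 calls without a filter, 32 with DESeq2 and 0 to 4 on leaving out a library. Shared calls became 205 with DESeq2 at day 0 (from 62; 5 to 71 on leaving out a library), 10 without a filter, 70 with DESeq2 and 12 with the block at day 6 (from 3; 0 to 4), and 95 with DESeq2 and 0 with the block at day 15 (from 9; 0 to 8). No named call changed direction. With the 1 CPM filter no Hox gene was left to give a median.

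Whether replicate numbers pair the libraries was not settled. Deviations from the group means correlated at 0.198, 0.0727 and 0.335 for numbers 1, 2 and 3, but dKO replicate 2 correlated best with E14 replicate 1 (0.109). Replicate 3 of either line correlated negatively with replicates 1 and 2 of the other (-0.282 to -0.155). The deviations within a line cancel out for each gene, so these negative values are tied to the 0.335 for number 3 and add little. A replicate block gave 218 calls against E14, of which 178 were among the 220, and 49 of the 57 named calls. The 8 that lost it (Osm, Zfp827, Cracd, Col1a2, Igf2, Stra8, Brpf3 and Cdh5) had adjusted p between 0.0502 and 0.0609. Scarce genes rest on few counts, and which limit weighs more, depth or the spread between replicates, was not tested.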

Other observations

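Lists not described above gave few or no calls. Of 16 amino acid stress response genes 15 had a log2 fold change above 0, with a median of 0.34 and no call. Asns, asparagine synthetase, was at 288, 321 and 372 CPM in dKO and 161, 170.1 and 214 CPM in E14 (0.85 ± 0.25, edgeR adjusted p = 0.149). Every dKO library was above every E14 library. Trib3, a stress-induced pseudokinase, was at 31.8, 39.1 and 12.8 CPM in dKO and 14.3, 14.4 and 14.3 CPM in E14 (0.96 ± 0.29, adjusted p = 0.151), and its dKO replicate 3 lay below E14.

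Of 18 genes of the neuronal cytoskeleton and synapse none was called, and the median was -0.08. Mapt, which encodes the microtubule protein tau, was at 5.69, 7.83 and 5.44 CPM in dKO and 1.36, 2.56 and 3.52 CPM in E14 (1.34 ± 0.34, adjusted p = 0.0799). Grin2b, an NMDA receptor subunit, was at 1.04, 1.32 and 1.88 CPM in dKO and 2.81, 2.83 and 2.71 CPM in E14 (-0.97 ± 0.39, adjusted p = 0.304). The groups were apart for both, in opposite directions. No call was made either among 18 primitive and visceral endoderm genes (median 0.12), 14 core pluripotency genes (-0.04), 18 mitosis and replication genes (-0.10), 16 retinoic acid pathway genes (-0.04), 15 netrin and slit guidance genes (-0.17) or 8 tested Hox genes (0.16).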
